A study of Mus musculus with 12 samples.

Results

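Hearts of PDE10A knockout (KO) mice given doxorubicin (DOX) were set against hearts of wild-type (WT) mice given vehicle. The 6 libraries compared were the 3 titled KO with DOX (numbers 18, 19 and 20) and the 3 titled WT with vehicle (numbers 1, 2 and 3), out of 12 in the series. The other 6 came from WT hearts with DOX and KO hearts with vehicle, and are given only beside a result. All groups carry the C57BL/6J strain label and the tissue label heart. DOX was injected into the peritoneum as 1 bolus of 15 mg/kg, and the protocol names 7 days. That protocol also speaks of pretreatment with the PDE10A inhibitor TP-10 or its vehicle, and no library carries a TP-10 label. It names males or females without the sex of each animal, and the labels give neither the knockout allele nor a Cre driver. Each library has a number of its own in its title, but no label says that each is a separate animal, so p-values measure the spread between libraries, part of which may be technical.

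DOX is an anthracycline that poisons topoisomerase II and breaks DNA, and its use against cancer is limited by damage to heart muscle. PDE10A is a phosphodiesterase that degrades the second messengers cAMP and cGMP. Cyclic AMP is made by adenylyl cyclases, activates protein kinase A in heart muscle and sets calcium handling and beat strength. Because the comparison differs in both genotype label and drug, a difference between these 6 libraries cannot be assigned to the knockout or to DOX alone.

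The 6 libraries held between 23846398 and 28146253 counts. The share of counts from mitochondrially encoded genes was between 27.2% and 33.6% in 5 of them and 19.5% in WT vehicle library 2. Ventricular myocyte markers were abundant throughout, with summed levels of 66455, 67198 and 74159 CPM (library-size normalised counts, scaled by TMM factors) in the DOX hearts labelled KO and 76147, 95933 and 79209.8 CPM in the vehicle hearts labelled WT. KO DOX library 18 stood apart through atrial transcripts, with a summed atrial marker level of 3184 CPM, against 1166 and 1089 CPM in libraries 19 and 20 and 683 to 766 CPM in the WT vehicle hearts. Its atrial light chain Myl7 stood at 543 CPM, against at most 14.0 CPM in the other 5 libraries. The same library exceeded libraries 19 and 20 in summed fibroblast and matrix genes (6014 against 3457 and 3666 CPM) and macrophage and monocyte markers (465 against 241 and 252 CPM). WT vehicle hearts had 4321 to 5729.9 and 299 to 636 CPM of these. Adipocyte markers had a median log2 of 1.81 over the WT vehicle mean in library 18, against -0.55 and -0.37 in libraries 19 and 20.

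Pde10a, the targeted gene, went against the genotype label. It lies on chromosome 17 from 8525372 to 8986648 (GRCm38). It stood at 8.27, 8.49 and 9.09 CPM in the DOX hearts labelled KO, against 3.38, 1.00 and 1.86 CPM in the vehicle hearts labelled WT. The log2 fold change was 2.07 (SE 0.32), with an adjusted p of 0.0124 by edgeR's quasi-likelihood test. Every library labelled KO lay above every library labelled WT, and this held in the other groups too, where the KO vehicle hearts had 9.31, 11.9 and 9.13 CPM and the WT DOX hearts 2.7, 2.08 and 1.79 CPM. A count over the whole gene does not show which exons were transcribed. KO and WT in these results are therefore the labels of the libraries, not a verified genotype, and every direction given rests on them. The call was lost without KO DOX library 20 (adjusted p = 0.0628) or WT vehicle library 3 (adjusted p = 0.085).

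Of 14757 genes tested, 1621 (11.0%) differed between the DOX hearts labelled KO and the vehicle hearts labelled WT at an adjusted p below 0.05. Of these, 890 (6.03%) were higher and 731 (4.95%) lower. Without TMM scaling the split was 1089 higher and 391 lower. Most differences were small, with 223 of the called genes at a log2 size of 1 or more and a median size of 0.27 over all genes tested. The 3 libraries of one group lay entirely above or below those of the other for 4994 genes (33.8%), higher for 2628 (17.8%) and lower for 2366 (16.0%). The same fit gave 62 calls (0.420%) for these hearts against WT DOX hearts and 2 calls (0.0136%) against KO vehicle hearts, and these comparisons share the DOX libraries labelled KO. WT DOX hearts against WT vehicle hearts gave 2743 calls (18.6%) and KO vehicle hearts against WT vehicle hearts 425 (2.88%), with the WT vehicle libraries shared.

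As a distance over all genes on the log2 CPM scale, a DOX heart labelled KO lay 74.8 from a vehicle heart labelled WT on average (range 53.3 to 95.2 over 9 pairs). Libraries within the KO DOX group lay 64.0 apart and those within the WT vehicle group 62.2. The distance between groups exceeded that within groups by 11.7, with an exact one-sided permutation p of 0.1, the smallest that 20 relabellings of 3 against 3 allow. The excess was 5.9 without WT vehicle library 2 and 18 without WT vehicle library 1. The permutation p was 0.2 without TMM scaling, without KO DOX library 18 and without WT vehicle library 2 or 3. It was 0.1 in the other alternatives. The DOX hearts labelled KO lay 60.3 from KO vehicle hearts and 70.8 from WT DOX hearts, while WT DOX hearts lay 79.6 from WT vehicle hearts.

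**Figure D1:**
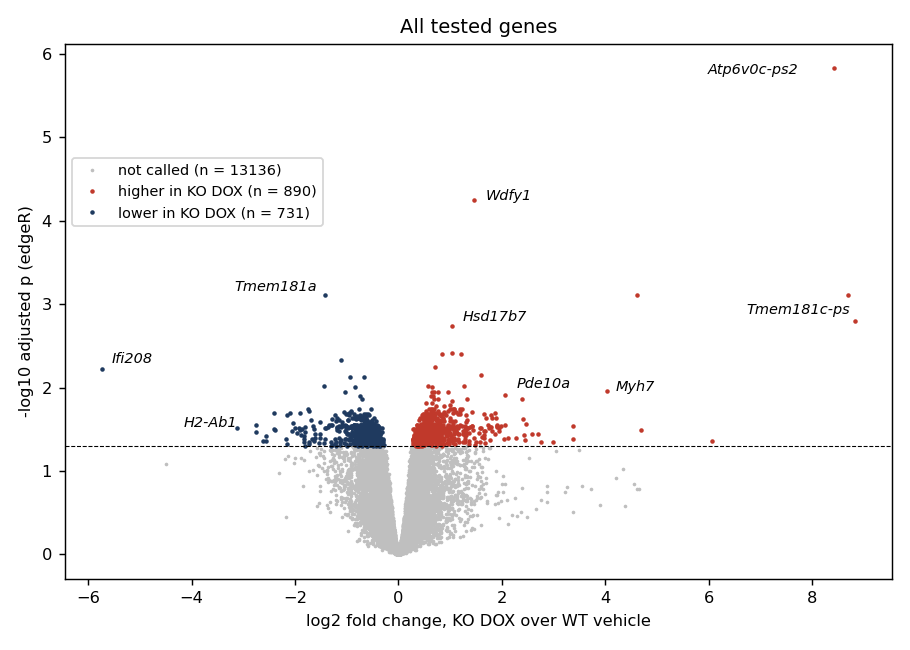
Each point is 1 of 14757 genes, by its log2 fold change (x axis, DOX hearts labelled KO over vehicle hearts labelled WT) and the negative log10 of its adjusted p (y axis); red points are the 890 genes called higher, dark blue points the 731 called lower, and the dashed line marks 0.05. A few genes stand clear of the threshold, led by Atp6v0c-ps2, Wdfy1 and Tmem181a, while most called genes lie just above it.

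The titles carry a suffix of unstated meaning, present in all 3 DOX libraries labelled KO and, of the WT vehicle libraries, only in library 1. With it as a covariate 16 genes were called. No gene of the class II, clock repressor, complex I or ribosomal lists described here was among them, and the medians of these lists were then -1.63, 0.51, -0.39 and -0.38. The number of calls also moved strongly with single libraries. It was 52, 53 and 18 without KO DOX libraries 18, 19 and 20, and 3640, 63 and 19 without WT vehicle libraries 1, 2 and 3. With DESeq2 it was 2630, and from 906 to 3971 when each library was left out in turn. The called genes kept their direction in at least 99.9% of cases in every alternative. The alternatives reused all or most of the libraries in which these genes were called, so this agreement is no independent support. Of 103 named genes called with all libraries, edgeR kept 13, 15 and 7 without KO DOX libraries 18, 19 and 20 and 98, 21 and 6 without WT vehicle libraries 1, 2 and 3. DESeq2 kept between 74 and 97 of them. Most calls named here thus needed all 3 DOX libraries labelled KO and WT vehicle libraries 2 and 3 in edgeR, and were kept by DESeq2.

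14 genes were called whichever library was left out, and 11 of them in every alternative planned. They fall into genes that also separate the genotype labels under each treatment and genes at which the vehicle hearts labelled WT were lowest or highest of the 4 groups. Of the second kind, Kcnj12 encodes an inward rectifier potassium channel of the myocyte membrane and lies on chromosome 11 from 61022564 to 61071131. It stood at 28.7, 25.7 and 25.7 CPM in the DOX hearts labelled KO, against 14.2, 13.2 and 11.6 CPM in the vehicle hearts labelled WT (log2 1.04, SE 0.13, adjusted p = 0.00387). The WT vehicle hearts lay below every other library, with WT DOX hearts at 19.7 to 26.9 CPM and KO vehicle hearts at 19.1 to 21.5 CPM. The range of the WT DOX hearts overlapped those of both groups labelled KO. Ctps, which makes CTP for nucleic acid and phospholipid synthesis, was at 47.9, 45.3 and 47.9 CPM against 27.5, 30.1 and 28.6 CPM (log2 0.71, adjusted p = 0.00565). Arhgap35, a GTPase-activating protein, had log2 0.85 (adjusted p = 0.00393), Setbp1, a binding partner of the SET protein, 1.21 (adjusted p = 0.00393) and Klhdc7a, a kelch-domain gene, 1.59 (adjusted p = 0.00713). Klhdc7a did not pass between KO vehicle and WT vehicle hearts (log2 0.73, adjusted p = 0.0708). Rflnb, an actin regulator that binds filamin, fell to 21.7, 25.7 and 26.9 CPM in the DOX hearts labelled KO, against 48.1, 64.8 and 48.7 CPM in the vehicle hearts labelled WT (log2 -1.12, SE 0.14, adjusted p = 0.0046). None of these 6 genes overlapped between the groups, as with 33.8% of all genes. All 6 were picked as called genes, so this adds no support.

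Hsd17b7, an enzyme of cholesterol and sex steroid synthesis, was also steady. It stood at 14.9, 15.2 and 14.8 CPM in the DOX hearts labelled KO, against 7.57, 7.43 and 6.78 CPM in the vehicle hearts labelled WT (log2 1.04, SE 0.12, adjusted p = 0.00184). KO vehicle hearts had 15.7 to 19.2 CPM and WT DOX hearts 9.13 to 11.4 CPM, so that the libraries labelled KO lay highest.

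Several of the steadiest genes followed the genotype label under both treatments. Wdfy1, an adaptor of endosomes in Toll-like receptor signalling, stood at 23.7, 26.1 and 25.0 CPM in the DOX hearts labelled KO, against 9.71, 7.94 and 9.28 CPM in the vehicle hearts labelled WT (log2 1.47, SE 0.11, adjusted p = 5.59e-05). KO vehicle hearts lay at 23.8 to 26.8 CPM and WT DOX hearts at 9.54 to 10.9 CPM. Atp6v0c-ps2, a pseudogene of a proton pump subunit on chromosome 6, had 1183 counts summed over the 3 DOX libraries labelled KO and 3 counts over the WT vehicle libraries. That is 383-fold higher, with an exact interval of 131 to 1861 for counting error only. Reads of a pseudogene and of its parent can be exchanged, so its level is uncertain. The predicted gene Gm36684 had 152 counts over the DOX libraries labelled KO and 0 over the WT vehicle libraries, which is at least 16.3-fold higher against the floor of 3 counts per library. Gm9825, also a predicted gene, had 6.07, 3.22 and 2.62 CPM against 0.089, 0.0691 and 0.317 CPM (adjusted p = 0.000768). Ifi208, an interferon-inducible gene of a family with near-identical members, had 2 counts against 121, or 62.2-fold more in the WT vehicle libraries (exact interval 16.9 to 520.0).

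**Figure D2:**
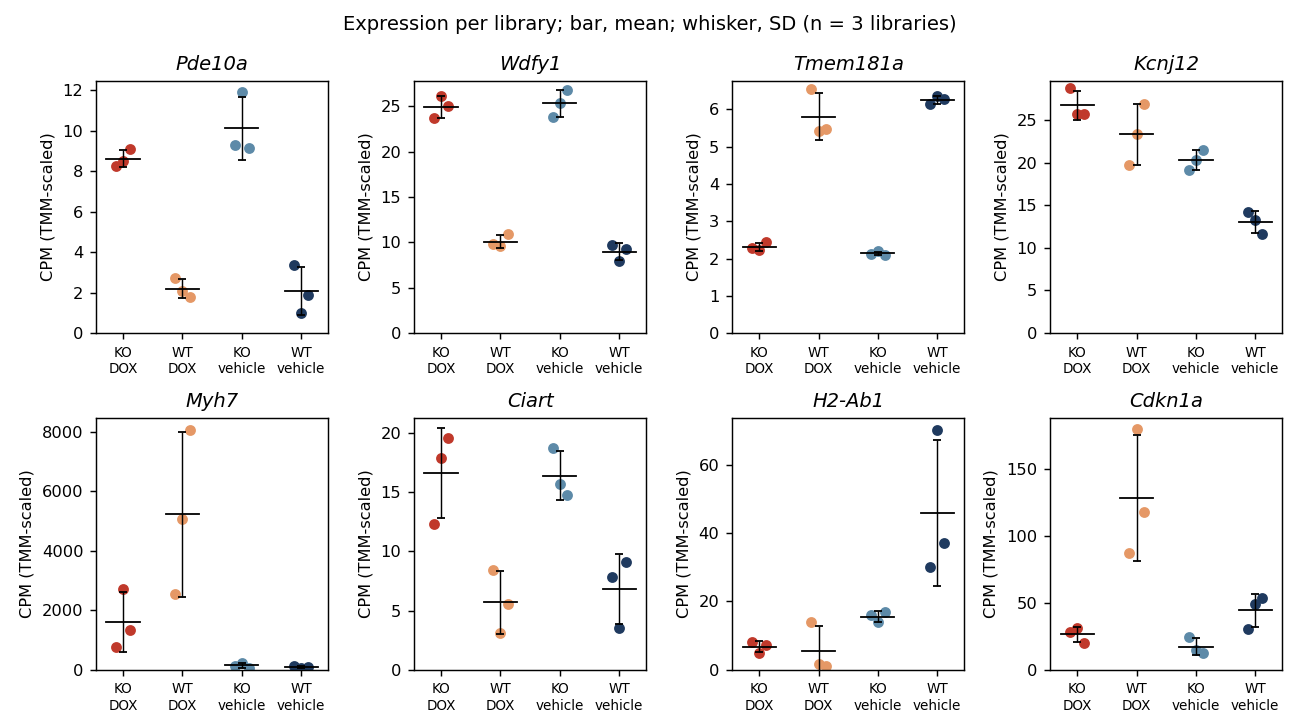
Expression (y axis, CPM scaled by TMM factors) of 8 genes in each library of the KO DOX, WT DOX, KO vehicle and WT vehicle groups; points are libraries, bars means and whiskers SDs (n = 3). Pde10a, Wdfy1 and Tmem181a separate by genotype label, Kcnj12 is lowest in the WT vehicle hearts, Myh7 has its highest values in both DOX groups, and Cdkn1a is highest in the WT DOX hearts.

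Genes near Pde10a were also called. Within 5 Mb of the gene, 13 of 52 tested genes differed between the DOX hearts labelled KO and the vehicle hearts labelled WT (25.0%), and within 10 Mb 16 of 85 (18.8%), beside 11.0% of all genes and 14.4% of those on chromosome 17. This comparison differs in drug as well, and of the 13 only Tmem181a, Tmem181c-ps and Rsph3b also passed between DOX hearts labelled KO and WT (0.420% of all genes). Tmem181a, a transmembrane gene from 6256860 to 6308314 on that chromosome, fell to 2.28, 2.23 and 2.43 CPM in the DOX hearts labelled KO, against 6.14, 6.36 and 6.27 CPM in the vehicle hearts labelled WT (log2 -1.43, SE 0.14, adjusted p = 0.000768). Its pseudogene Tmem181c-ps had 53, 61 and 53 counts in the DOX libraries labelled KO and none in any WT vehicle library. Against the same floor it was at least 17.9-fold higher. Tmem181a and this pseudogene are similar copies, and reads can be split between them. Outside chromosome 17, Nnt, the mitochondrial transhydrogenase in which C57BL/6J mice are known to carry a deletion, was at 819, 733 and 632 CPM against 515, 352 and 428 CPM (log2 0.75, adjusted p = 0.0229), with WT DOX hearts at 582 to 603 CPM and KO vehicle hearts at 994 to 1223 CPM. Between DOX hearts labelled KO and WT it did not pass (log2 0.30, adjusted p = 0.334).

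Heart muscle genes were led by Myh7, which encodes beta myosin heavy chain, a slow isoform kept low in adult mouse ventricles and re-expressed under stress. It stood at 761, 2709 and 1330.4 CPM in the DOX hearts labelled KO, against 139.9, 70.5 and 84.4 CPM in the vehicle hearts labelled WT. The means were 1600 ± 1001 CPM and 98.3 ± 36.7 CPM (SD, n = 3 libraries each), the log2 fold change was 4.03 (SE 0.59, adjusted p = 0.0109 by edgeR), and the lowest DOX heart labelled KO lay far above the highest WT vehicle heart. Among the edgeR fits without 1 library, the call was lost only without WT vehicle library 3 (adjusted p = 0.085), and DESeq2 kept it whichever library was left out. WT DOX hearts had 2531, 5062 and 8073 CPM, and the difference between the DOX hearts labelled KO and those labelled WT did not pass (log2 -1.71, adjusted p = 0.169). KO vehicle hearts had 74.7 to 240.3 CPM.

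Other stress genes mostly missed the threshold. Of 18 cardiac stress and fetal genes tested (11.1% called, beside 11.0% of all genes), Myh7 rose and Csrp3, a muscle LIM protein, fell (log2 -0.49, adjusted p = 0.042), with a median log2 of 0.16 beside 0.02 over all genes. The natriuretic peptide gene Nppa had 498, 253 and 213 CPM in the DOX hearts labelled KO and 93.7, 43.9 and 29.6 CPM in the vehicle hearts labelled WT, without overlap, yet did not pass in edgeR (log2 2.53, adjusted p = 0.07) and passed in DESeq2 (adjusted p = 0.0415). Nppa is also an atrial gene, and its highest value fell in KO DOX library 18. The stretch-responsive gene Ankrd1 (log2 1.01, adjusted p = 0.0854), the natriuretic peptide gene Nppb (0.52, adjusted p = 0.356), skeletal actin Acta1 (-0.36, adjusted p = 0.743) and the fast myosin gene Myh6 (0.02, adjusted p = 0.908) did not pass either.

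Of 20 sarcomere genes tested, 2 rose and 3 fell, beside 6.03% and 4.95% of all genes, with a median log2 of -0.01. Mybpc3, myosin-binding protein C, rose (log2 0.55, adjusted p = 0.0352), as did the actin-binding Cap2 (log2 0.44, adjusted p = 0.027). The Z-disc gene Myoz2 (log2 -0.43, adjusted p = 0.0349), tropomyosin Tpm1 (log2 -0.53, adjusted p = 0.0363) and troponin I Tnni3 (log2 -0.74, adjusted p = 0.0361) fell. Tnni3 had 3926 to 4183 CPM in the DOX hearts labelled KO and 5082, 8953 and 6393 CPM in the vehicle hearts labelled WT, with the highest level in WT vehicle library 2.

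Some channels and transporters that shape the cardiac action potential rose in the DOX hearts labelled KO. Of 30 ion channel and calcium handling genes, 7 rose and 0 fell, beside 6.03% of all genes called higher, and the median log2 was 0.24, with 8 members below 0. Slc8a1, the sodium-calcium exchanger, was at 389, 441 and 478 CPM in the DOX hearts labelled KO and 277, 187 and 215 CPM in the vehicle hearts labelled WT (log2 0.95, SE 0.14, adjusted p = 0.0112). The lowest DOX heart labelled KO lay above the highest WT vehicle heart.

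Potassium channels and the calcium release channel were among the members that rose. Kcnh2, which carries the rapid delayed rectifier current, had 98.2, 83.4 and 81.9 CPM in the DOX hearts labelled KO against 53.7, 52.2 and 58.7 CPM (log2 0.68, adjusted p = 0.0137). The acetylcholine-gated channel genes Kcnj5 (log2 0.84, adjusted p = 0.025) and Kcnj3 (log2 0.54, adjusted p = 0.0475) rose, and both were highest in KO DOX library 18, the library high in atrial transcripts. Ryr2, the ryanodine receptor, had log2 0.60 (adjusted p = 0.0394). Atp2a2, the calcium pump SERCA2 (log2 0.47, adjusted p = 0.0708), and the L-type channel gene Cacna1c (log2 0.54, adjusted p = 0.0899) did not pass. KO vehicle hearts were also high in Kcnh2 (87.9 to 98.3 CPM) and Slc8a1 (346 to 393 CPM). The list had 3, 3 and 1 calls in edgeR without KO DOX libraries 18, 19 and 20 and 9, 3 and 1 without WT vehicle libraries 1, 2 and 3, against 6 to 11 higher calls in the DESeq2 fits, and 6 with offsets for exon length and GC content.

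The machinery of cyclic nucleotides, the substrate of PDE10A, moved modestly. Of 18 phosphodiesterases other than Pde10a, 2 rose and 0 fell (11.1%, beside 6.03% of all genes called higher). They were Pde4d, a cAMP-specific enzyme (log2 0.80, adjusted p = 0.0258), and Pde1c, which is activated by calcium and calmodulin (log2 0.56, adjusted p = 0.0341), whose call was lost with length and GC offsets (log2 0.23, adjusted p = 0.399). Of 17 cyclases and kinases, 3 rose and 1 fell (23.5% called, beside 11.0% of all genes). Adcy5, a main adenylyl cyclase of heart muscle, had 91.1, 74.3 and 80.9 CPM in the DOX hearts labelled KO and 56.5, 52.3 and 57.7 CPM in the vehicle hearts labelled WT (log2 0.57, SE 0.10, adjusted p = 0.0208). Adcy9 had 19.3, 22.1 and 20.2 CPM against 9.62, 2.52 and 4.96 CPM (log2 1.87, adjusted p = 0.02), with WT vehicle library 2 lowest. Adcy4 fell to 22.5, 24.6 and 27.1 CPM, against 40.6, 40.4 and 39.6 CPM (log2 -0.70, SE 0.11, adjusted p = 0.0137). Groups overlapped for none of the 3 cyclases, as with 33.8% of all genes. All 3 were named as called genes, and Adcy9 also by a rule that required no overlap. The lack of overlap thus adds no support. Prkar2a, a regulatory subunit of protein kinase A, rose (log2 0.53, adjusted p = 0.0299), and Crem, a cAMP-responsive transcription factor, fell (log2 -0.85, adjusted p = 0.044).

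Repressors of the circadian clock had the highest share of members called higher among the 47 gene lists examined. In this clock, the activators BMAL1 (Arntl) and CLOCK drive the repressors PER, CRY and their relatives through E-box elements, and output factors such as DBP, TEF and HLF pass the rhythm on. Of 10 repressors tested, 6 rose and 0 fell (60%, beside 6.03% of all genes called higher), with a median log2 of 0.66. All 10 had a log2 fold change above 0, and with length and GC offsets 3 were called and the median was 0.57. Of 7 output genes, 3 rose and 0 fell, with a median of 0.64. Of 6 activators none passed in edgeR, with 1 at an unadjusted p below 0.05 and 1 call in DESeq2.

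Ciart, a repressor of CLOCK and BMAL1, was at 12.3, 17.9 and 19.6 CPM in the DOX hearts labelled KO, against 7.84, 3.52 and 9.13 CPM in the vehicle hearts labelled WT (log2 1.29, SE 0.35, adjusted p = 0.0409). The cryptochrome genes Cry1 (10.2, 9.59 and 11.2 CPM against 6.63, 5.80 and 6.23 CPM, log2 0.73, adjusted p = 0.03) and Cry2 (log2 0.74, adjusted p = 0.0305) rose by like amounts. Per3 (log2 0.82, adjusted p = 0.0357), Bhlhe41 (log2 0.58, adjusted p = 0.0393) and Bhlhe40 (log2 0.37, adjusted p = 0.0443) rose too. Each of these separated the groups without overlap, as did 17.8% of all genes in the same direction. These genes had already been called, so the separation adds no support. Per2 had 34.7, 32.2 and 34.2 CPM against 18.4, 7.46 and 24.4 CPM and missed the threshold (log2 1.01, adjusted p = 0.0548), and Nr1d1, which encodes REV-ERBα, was at 0.04 (adjusted p = 0.937).

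Among the output genes, Hlf stood at 41.9, 30.0 and 33.9 CPM in the DOX hearts labelled KO and 19.9, 16.4 and 21.5 CPM in the vehicle hearts labelled WT (log2 0.87, SE 0.16, adjusted p = 0.0208). Tef had log2 0.69 (adjusted p = 0.033), and Wee1, a mitotic kinase under clock control, 1.03 (adjusted p = 0.0146). Hlf also separated the DOX hearts labelled KO from the WT DOX hearts, which had 18.3, 14.0 and 20.4 CPM (log2 1.00, adjusted p = 0.0268), as did Dbp, at 107, 98.4 and 121 CPM against 48.6, 10.0 and 21.1 CPM (log2 2.03, adjusted p = 0.0484). Against the WT vehicle hearts Dbp did not pass (log2 0.64, adjusted p = 0.263). Arntl, the activator, had 4.02, 8.27 and 3.12 CPM in the DOX hearts labelled KO and 13.1, 13.0 and 8.57 CPM in the vehicle hearts labelled WT, which missed the threshold (log2 -1.17, adjusted p = 0.0558), and KO vehicle hearts had 0.95 to 1.92 CPM.

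KO vehicle hearts lay above the WT vehicle hearts as well, with Hlf at 42.5 to 48.8 CPM and Ciart at 14.8 to 18.7 CPM. The time of day at which hearts were taken is not given in the sources used here, and its part in these values was not tested. In edgeR the repressor list had no call without KO DOX library 18, 19 or 20 or WT vehicle library 2 or 3, with medians of 0.54 to 0.68. In DESeq2 it had 5 to 8 calls in each such fit. The output list had 0, 2 and 0 calls without KO DOX libraries 18, 19 and 20 and 1 without WT vehicle library 2 or 3, and 3 in each DESeq2 fit.

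**Figure D3:**
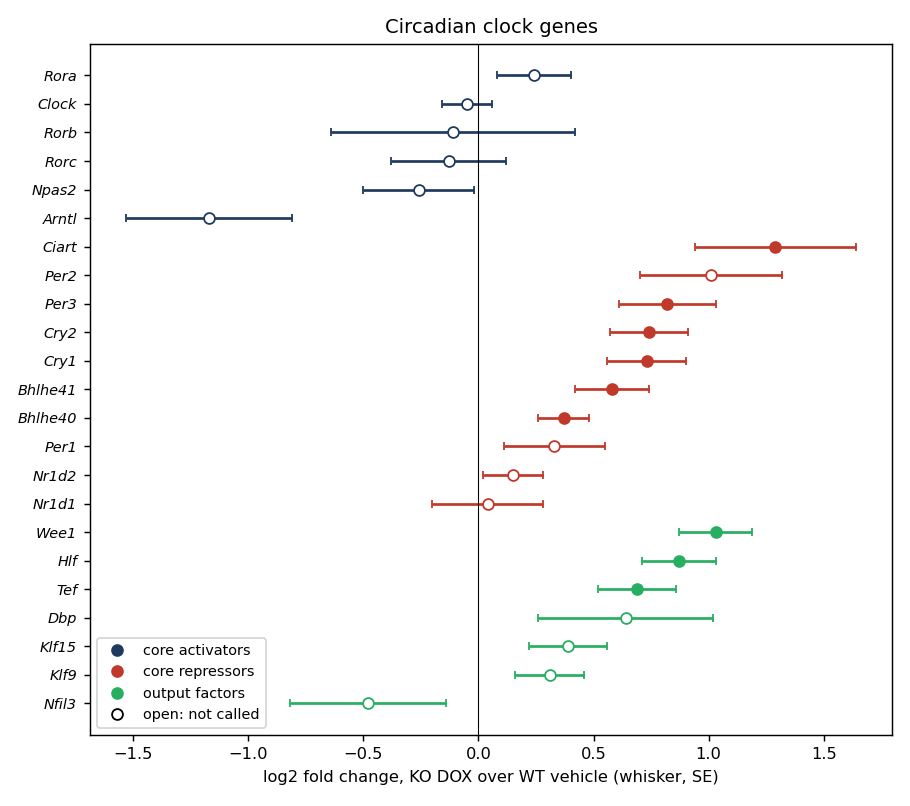
Log2 fold change (x axis, DOX hearts labelled KO over vehicle hearts labelled WT, whiskers SE) of each tested circadian clock gene (y axis), grouped as activators, repressors and output genes; filled points passed the adjusted p threshold. The 10 repressors all lie right of 0, led by Ciart at 1.29, and Arntl lies farthest left at -1.17.

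The promoters of 3 of the repressors that rose are shown because they hold the E-box through which the clock activators act. Each is 250 bases before to 50 after a RefSeq transcription start (GRCm38.p6), read on the gene's own strand, with E-boxes in capitals. Those of Ciart (chr3:95882179-95882478), Bhlhe41 (chr6:145865371-145865670) and Cry1 (chr10:85185005-85185304) lie on the minus strand.
Ciart: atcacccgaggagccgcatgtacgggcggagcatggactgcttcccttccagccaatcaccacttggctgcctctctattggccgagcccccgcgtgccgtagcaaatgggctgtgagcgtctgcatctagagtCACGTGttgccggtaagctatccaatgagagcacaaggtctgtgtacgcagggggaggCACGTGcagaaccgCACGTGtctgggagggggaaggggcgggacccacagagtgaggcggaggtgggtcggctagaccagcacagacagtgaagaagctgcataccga
Bhlhe41: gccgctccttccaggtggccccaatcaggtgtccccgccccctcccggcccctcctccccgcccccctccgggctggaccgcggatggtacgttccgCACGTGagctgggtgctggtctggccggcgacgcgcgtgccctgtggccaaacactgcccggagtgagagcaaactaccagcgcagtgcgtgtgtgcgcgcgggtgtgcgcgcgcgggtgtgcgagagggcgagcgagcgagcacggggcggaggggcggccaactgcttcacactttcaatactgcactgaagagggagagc
Cry1: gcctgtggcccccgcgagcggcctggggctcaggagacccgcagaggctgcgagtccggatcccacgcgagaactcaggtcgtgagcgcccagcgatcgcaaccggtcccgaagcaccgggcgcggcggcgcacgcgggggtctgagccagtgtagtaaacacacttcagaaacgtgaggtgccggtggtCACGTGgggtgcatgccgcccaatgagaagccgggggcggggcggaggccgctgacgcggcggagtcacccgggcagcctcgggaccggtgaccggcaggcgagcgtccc
The Ciart window holds 3 E-boxes and the others 1 each. The motif searched was CACGTG, which reads the same on both strands and overlapped no other motif searched. It was found in 4 of 9 windows of the clock repressors (8 genes matched) and in 3 of 7 windows of the output genes (6 genes matched), beside 7.15% of 32851 windows in all. The windows of Cry2, Per3 and the output gene Hlf, which also rose, held none, and each of 2 windows of Tef held 1. None of the 9 windows of the activators held it. A match is a string of letters and not a measured binding site.

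MHC class II genes had the lowest median of the 47 gene lists examined. These genes encode the molecules with which dendritic cells, B cells and macrophages present antigen to helper T cells. Of 8 tested, 6 fell and 0 rose (75.0%, beside 4.95% of all genes called lower), and the median log2 was -2.48. With offsets for exon length and GC content 3 genes were called and the median was -2.20. H2-Ab1 had 8.04, 4.98 and 7.32 CPM in the DOX hearts labelled KO, against 30.1, 70.2 and 37.1 CPM in the vehicle hearts labelled WT (log2 -2.76, SE 0.69, adjusted p = 0.034). H2-Aa (log2 -2.62, adjusted p = 0.044) and H2-Eb1 (log2 -2.56, adjusted p = 0.044) fell alongside. Cd74, the invariant chain that escorts class II molecules, had 27.9, 16.4 and 24.5 CPM in the DOX hearts labelled KO and 93.7, 197 and 116 CPM in the vehicle hearts labelled WT (log2 -2.56, adjusted p = 0.0377). No DOX heart labelled KO reached the lowest WT vehicle heart in any of these 4 genes, as in 16.0% of all genes. H2-Aa and H2-Eb1 were named by a rule that required this, and all 4 had already been called, so it adds no support.

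The peptide-loading genes fell at a lower level. H2-DMa had 1.34, 1.02 and 1.39 CPM against 3.70, 6.01 and 4.29 CPM (log2 -1.90, adjusted p = 0.0199), and H2-DMb1 had log2 -2.40 (adjusted p = 0.02). Ciita, the master regulator of the class II genes, had 0.512, 0.256 and 0.347 CPM in the DOX hearts labelled KO and 1.16, 1.59 and 1.19 CPM in the vehicle hearts labelled WT and did not pass (log2 -1.82, adjusted p = 0.0727). WT DOX library 21 was at 14.0 CPM for H2-Ab1 and libraries 22 and 24 at 1.57 and 1.18 CPM, and KO vehicle hearts at 13.9 to 16.8 CPM. In whole hearts, fewer cells of a type and less RNA per cell cannot be told apart. In edgeR no class II gene was called without WT vehicle library 2 or 3 or any 1 of the 3 KO DOX libraries, with medians of -2.11 to -2.62, and DESeq2 called none without WT vehicle library 2 and from 1 to 6 without each of the others. H2-Ab1, H2-Aa, H2-Eb1 and Cd74 each lacked an adjusted p in some of the DESeq2 fits without a library.

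The proximal promoters of H2-Aa (chr17:34287774-34288073, minus strand) and H2-Eb1 (chr17:34305617-34305916, plus strand) are printed because class II promoters are known to share a Y-box (RefSeq, GRCm38.p6). Capitals mark every match to the short motif searched for it, on either strand.
H2-Aa: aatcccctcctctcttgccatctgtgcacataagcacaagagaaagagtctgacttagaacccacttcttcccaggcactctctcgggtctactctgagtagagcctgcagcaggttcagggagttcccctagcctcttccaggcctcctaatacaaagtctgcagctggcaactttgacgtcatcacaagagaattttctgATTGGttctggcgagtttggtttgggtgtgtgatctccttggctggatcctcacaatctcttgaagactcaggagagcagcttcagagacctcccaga
H2-Eb1: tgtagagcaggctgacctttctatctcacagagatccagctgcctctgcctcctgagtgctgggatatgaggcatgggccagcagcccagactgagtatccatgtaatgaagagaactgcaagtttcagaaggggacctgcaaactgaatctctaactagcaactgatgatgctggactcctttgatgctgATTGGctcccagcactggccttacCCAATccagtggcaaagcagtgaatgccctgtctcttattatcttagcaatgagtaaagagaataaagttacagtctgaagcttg
The motif searched was ATTGG, or CCAAT on the other strand, chosen after the expression values were seen. It occurred in 7 of 8 windows of the class II list (7 genes matched), beside 37.4% of 32851 windows in all, and as often in the clock lists (8 of 9 repressor windows and 6 of 7 output windows). Such a match is a string of letters and need not be the shared Y-box.

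Markers of other cell types were mostly lower or did not pass. Of 25 endothelial markers, 4 fell and 0 rose (16%, beside 4.95% of all genes called lower, median log2 -0.39). Fabp4, the fatty acid binding protein of capillary endothelium and fat, fell to 321, 452 and 440.4 CPM in the DOX hearts labelled KO, against 655, 865 and 768 CPM in the vehicle hearts labelled WT (log2 -0.92, SE 0.16, adjusted p = 0.0191). Robo4, a guidance receptor of vessels (log2 -0.44, adjusted p = 0.0377), the adhesion molecule gene Pecam1 (log2 -0.29, adjusted p = 0.0428) and the TGF-beta co-receptor gene Eng (log2 -0.46, adjusted p = 0.0476) fell less. Outside that list, the endothelial tight junction gene Cldn5 had 9.14, 7.65 and 8.79 CPM against 21.6, 42.1 and 18.6 CPM (log2 -1.69, adjusted p = 0.0241). In edgeR the endothelial list had 0, 1 and 0 calls without KO DOX libraries 18, 19 and 20 and 7, 0 and 0 without WT vehicle libraries 1, 2 and 3. Of 21 macrophage and monocyte markers only the chemokine receptor gene Ccr2 passed (log2 -1.28, adjusted p = 0.0279, median of the list -0.24). Without KO DOX library 18 that median was -0.65 in edgeR and -0.72 in DESeq2, with 1 and 9 genes lower, and without WT vehicle library 2 it was 0.06 and -0.02, with none called. Without KO DOX libraries 19 and 20 the edgeR medians were -0.05 and -0.11, without WT vehicle library 1 -0.40 with 4 calls, and with length and GC offsets 0.01. Of 41 fibroblast and matrix genes only Tgfb1 passed (log2 -0.58, adjusted p = 0.0208). In edgeR none of 30 interferon response genes, 6 lymphocyte markers or 8 erythroid genes passed, with 3, 0 and 1 at an unadjusted p below 0.05 and 1, 0 and 0 calls in DESeq2.

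Of 9 neutrophil markers tested, 2 were lower in the DOX hearts labelled KO than in the DOX hearts labelled WT, a contrast with 0.420% of all genes called. S100a8, a calcium-binding alarmin of neutrophils, had 0.591, 1.35 and 1.00 CPM in the DOX hearts labelled KO, 2.23, 10.7 and 9.10 CPM in the WT DOX hearts and 0.445, 0.311 and 0.595 CPM in the WT vehicle hearts. Against WT vehicle hearts it did not pass (log2 1.13, adjusted p = 0.216), and against WT DOX hearts it was lower (log2 -2.90, adjusted p = 0.0359). S100a9 was at log2 0.98 (adjusted p = 0.206) against WT vehicle hearts, with no overlap, and at -2.43 (adjusted p = 0.0411) against WT DOX hearts. In the same list 1 gene rose against WT vehicle hearts. It was the chemokine receptor gene Cxcr2, at 0.158, 0.293 and 0.27 CPM in the DOX hearts labelled KO and 0.0445, 0 and 0.0397 CPM in the vehicle hearts labelled WT (adjusted p = 0.0446), where the level is near that of 1 count. WT DOX library 21 lay nearest to the DOX hearts labelled KO for S100a8 and S100a9.

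Nuclear genes of oxidative phosphorylation formed the largest block of lower genes. Of 38 subunits of complex I, the NADH dehydrogenase, 29 fell and 0 rose (76.3%, beside 4.95% of all genes called lower), with a median log2 of -0.62. Of 43 subunits of complexes II to V, 25 fell and 0 rose (58.1%, median -0.54). Ndufb7, an accessory subunit of complex I, had 232, 238 and 249.7 CPM in the DOX hearts labelled KO, against 313, 551 and 378 CPM in the vehicle hearts labelled WT (log2 -0.79, SE 0.17, adjusted p = 0.0287). Uqcr11, of complex III, had 249, 274 and 271 CPM against 356, 664 and 446 CPM (log2 -0.88, SE 0.19, adjusted p = 0.0287). Cox7a1, the heart and muscle form of a complex IV subunit, had 385, 432 and 455 CPM against 699, 1277 and 848 CPM (log2 -1.15, SE 0.28, adjusted p = 0.0332). In each the groups did not overlap, as in 16.0% of all genes in this direction, which adds no support for genes already called. WT vehicle library 2 was highest in each and library 1 nearest to the DOX hearts labelled KO.

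Cytosolic ribosomal protein genes fell in 34 of 79 (43%, beside 4.95% of all genes called lower), with 0 higher and a median log2 of -0.54. Rpl38 had 27.8, 27.5 and 26.8 CPM in the DOX hearts labelled KO and 37.9, 72.8 and 48.7 CPM in the vehicle hearts labelled WT (log2 -0.96, SE 0.18, adjusted p = 0.0211). Rps2 (log2 -0.89, adjusted p = 0.0231) and Rpl37 (log2 -0.70, adjusted p = 0.0305) fell with it. Many ribosomal protein genes have processed pseudogenes that can share their reads. Of the mitochondrially encoded genes, the ribosomal RNAs mt-Rnr1 (log2 -1.18, adjusted p = 0.03) and mt-Rnr2 (log2 -0.72, adjusted p = 0.044) fell and the other 8 tested did not pass.

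These blocks moved with transcript length and with WT vehicle library 2. With genes in 10 equal groups by annotated exon length, the median log2 fold change ran from -0.37 in the shortest group, where 20 genes were higher and 193 lower, to 0.26 in the longest group, where 214 were higher and 11 lower. Called higher genes had a median exon length of 6780 bases and called lower genes 2459, beside 4257 for all genes. Relative to the mean of 12 libraries, the shortest group stood at -0.10, -0.10 and -0.08 in the DOX hearts labelled KO and at 0.02, 0.52 and 0.22 in WT vehicle libraries 1, 2 and 3. With offsets for exon length and GC content in each library, complex I kept 14 lower calls (median -0.33), complexes II to V 10 (median -0.35) and ribosomal proteins 7 (median -0.32), and 760 of all 1621 calls were kept. Among genes named in these results, others also lost their calls with these offsets. They included H2-Aa, H2-Eb1, Cd74, Per3, Kcnj3, Eda2r, Plk3, Ccna2, Cox7a1, mt-Rnr2, Acaa2, Hspb6, Robo4, Csrp3 and Cyp26b1, all in an unchanged direction. The clock repressors Bhlhe41 and Bhlhe40 and at least 1 of the sarcomere genes Tpm1 and Tnni3 lost theirs too. Without WT vehicle library 2 the medians were -0.42, -0.38 and -0.28, with 0, 0 and 1 calls in edgeR and 22, 21 and 19 in DESeq2. Without KO DOX library 18, 19 or 20 or WT vehicle library 3, edgeR made no call in the 3 lists, and DESeq2 made 25 or more in the ribosomal list.

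**Figure D4:**
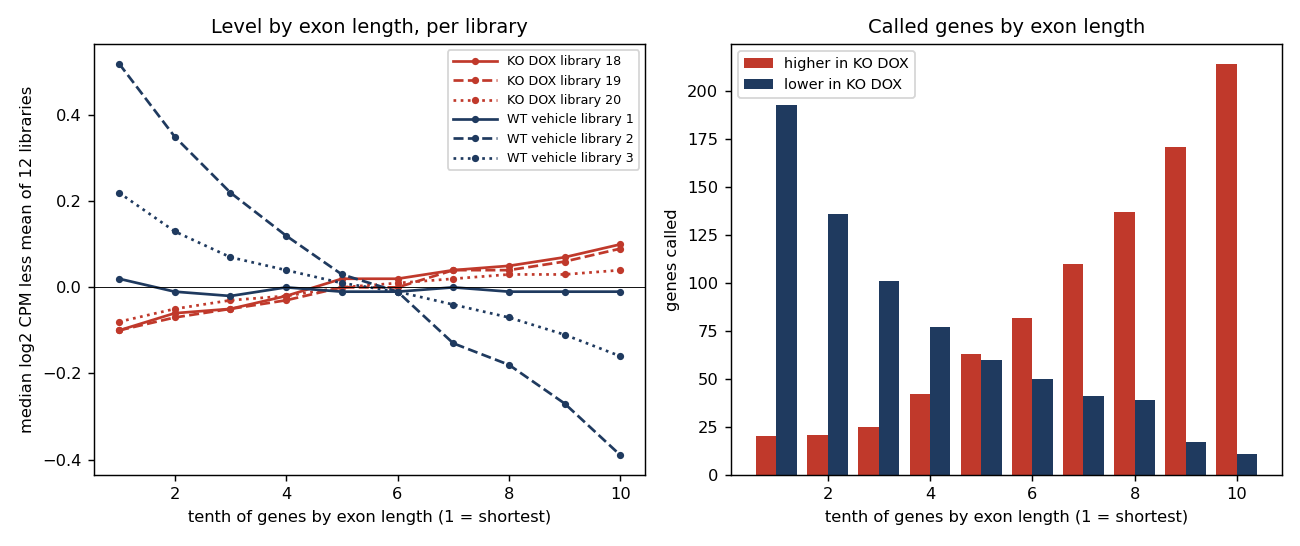
Left, median log2 CPM less the mean of all 12 libraries (y axis) in 10 equal groups of genes from shortest to longest exon length (x axis) in the 3 DOX libraries labelled KO and the 3 vehicle libraries labelled WT; right, genes called higher or lower in each group of genes. WT vehicle library 2 runs from 0.52 to -0.39 and the DOX libraries labelled KO run the other way within 0.10 of 0, and calls of lower genes fall from 193 to 11 along the same axis.

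DOX is known to engage the DNA damage response. Of 35 p53 targets, 6 rose and 1 fell (20% called, beside 11.0% of all genes, median log2 0.23), and 3 genes were called with offsets for exon length and GC content. In edgeR the list had no call without KO DOX library 18, 19 or 20 or WT vehicle library 2 or 3. The edgeR median was 0.07 without KO DOX library 18 or WT vehicle library 1. DESeq2 had 2 to 8 higher calls in the fits without 1 library. Eda2r, a death receptor of the TNF family, had 4.49, 2.82 and 3.93 CPM in the DOX hearts labelled KO, against 2.09, 2.35 and 2.26 CPM in the vehicle hearts labelled WT (log2 0.74, adjusted p = 0.0384). Mdm2, the ligase that degrades p53 (log2 0.30, adjusted p = 0.0447), Rrm2b, a ribonucleotide reductase subunit (log2 0.63, adjusted p = 0.0377), and Ephx1, an epoxide hydrolase (log2 0.71, adjusted p = 0.0231), rose, and the kinase gene Plk3 fell (log2 -0.84, adjusted p = 0.0361). Cdkn1a, the cell cycle inhibitor p21, had 27.9, 31.4 and 19.8 CPM in the DOX hearts labelled KO and 30.5, 49.3 and 53.6 CPM in the vehicle hearts labelled WT and did not pass (log2 -0.75, adjusted p = 0.123). WT DOX hearts had 87.4, 180.1 and 118 CPM, and the DOX hearts labelled KO lay below them without overlap (log2 -2.28, adjusted p = 0.0155).

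Proliferation genes fell in 5 of 30 (16.7%, beside 4.95% of all genes called lower), with 0 higher. Mki67, a marker of dividing cells, had 0.788, 0.732 and 0.578 CPM in the DOX hearts labelled KO, against 2.00, 4.42 and 2.50 CPM in the vehicle hearts labelled WT (log2 -2.09, SE 0.37, adjusted p = 0.0203). Top2a, the topoisomerase of dividing cells that DOX poisons (log2 -2.06, adjusted p = 0.0328), and cyclin A2, Ccna2 (log2 -1.63, adjusted p = 0.0433), fell with it. All lie at low levels. DESeq2 called 1 gene of the list and gave Top2a and Ccna2 no adjusted p, so it does not judge them. In edgeR 8 were called without WT vehicle library 1 and none without any other 1 of the 6 libraries. Of 30 DNA repair genes, 5 rose and 3 fell (26.7% called, beside 11.0% of all genes). Mre11a, a nuclease of double-strand break repair, was at log2 0.65 (adjusted p = 0.0112), and Ercc1, of nucleotide excision repair, at -0.54 (adjusted p = 0.0306). Of 14 genes of anthracycline metabolism and efflux, the transporters Abcb1a (log2 0.67, adjusted p = 0.0435) and Abcg2 (log2 0.42, adjusted p = 0.0388) rose (14.3%, beside 6.03% of all genes), and both calls were lost with length and GC offsets (adjusted p = 0.0635 and 0.148).

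Of 32 NRF2 and antioxidant genes, 3 rose and 3 fell, beside 6.03% and 4.95% of all genes. Gsta3 (log2 0.73, adjusted p = 0.0341) and Gstm2 (log2 0.42, adjusted p = 0.0339), glutathione transferases, rose, the first without passing under length and GC offsets (adjusted p = 0.061), while superoxide dismutase Sod1 fell to 170.3, 189 and 169.9 CPM, against 225, 380.5 and 286 CPM (log2 -0.75, adjusted p = 0.0306). Of 20 iron and ferroptosis genes, 4 rose and 1 fell (25% called, beside 11.0% of all genes). Cp, the ferroxidase ceruloplasmin, had 123, 181 and 125 CPM in the DOX hearts labelled KO and 95.3, 68.1 and 77.5 CPM in the vehicle hearts labelled WT (log2 0.83, adjusted p = 0.029). Of 19 heat shock chaperones, 1 rose and 4 fell (26.3% called, beside 11.0% of all genes). Among those that fell was the small heat shock protein gene Hspb6 (log2 -0.48, adjusted p = 0.0231).

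Metabolic regulators included some of the largest rises. Ppara, the nuclear receptor that drives fatty acid oxidation, had 31.0, 36.8 and 33.5 CPM in the DOX hearts labelled KO, against 17.2, 2.69 and 7.30 CPM in the vehicle hearts labelled WT (log2 1.91, SE 0.43, adjusted p = 0.0297). Its targets did not rise as a group. Of 37 fatty acid oxidation genes and PPAR targets, only Ppara itself rose and 2 fell (8.11% called, beside 11.0% of all genes). Acaa2, a thiolase, was at log2 -0.57 (adjusted p = 0.044). Hk1, hexokinase 1, was at 256, 259 and 266 CPM against 175, 139 and 159 CPM (log2 0.72, SE 0.12, adjusted p = 0.0166). Pdpr, a regulatory subunit of pyruvate dehydrogenase phosphatase, had 75.5, 92.6 and 82.0 CPM against 37.5, 6.63 and 16.1 CPM (log2 2.06, adjusted p = 0.0279). WT vehicle library 2 was lowest in Ppara and Pdpr. Each kept its edgeR call in 1 of the 6 fits without a library, and its DESeq2 call in all 6. WT DOX hearts had 24.9 to 32.8 CPM of Ppara and KO vehicle hearts 23.5 to 32.4 CPM. Pdk4, which inhibits pyruvate dehydrogenase, had 181, 93.7 and 176 CPM in the DOX hearts labelled KO and 604, 617 and 626 CPM in the vehicle hearts labelled WT and did not pass (log2 -2.03, adjusted p = 0.0801).

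Other genes among the 12 highest included Hipk2, a kinase that phosphorylates p53, at 45.5, 44.9 and 41.0 CPM against 14.9, 4.70 and 5.71 CPM (log2 2.39, SE 0.37, adjusted p = 0.0137), and Nt5c1a, which forms adenosine from AMP, at log2 2.46 (adjusted p = 0.0272). In both, all 3 DOX hearts labelled KO lay close together and the vehicle hearts labelled WT were spread. Cyp26b1, which degrades retinoic acid, had 68.9, 4.03 and 15.3 CPM against 2.36, 3.42 and 2.7 CPM (log2 3.37, adjusted p = 0.0418). It rested on KO DOX library 18, and was at log2 1.76 (adjusted p = 0.159) without it. Ano5, a muscle anoctamin, had log2 1.91 (adjusted p = 0.0289).

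Immediate early genes are transcription factors and regulators induced by acute stimuli. Of 18 tested, 2 fell and 0 rose (11.1%, beside 4.95% of all genes called lower), and all 18 had a log2 fold change below 0 (median -0.64). Ier2 was at 8.07, 8.27 and 8.90 CPM against 9.93, 22 and 21.5 CPM (log2 -1.09, adjusted p = 0.029) and Jund at log2 -0.90 (adjusted p = 0.0303), and the call of Jund was lost with length and GC offsets (adjusted p = 0.0801). Nr4a3, an orphan nuclear receptor, had 2.44, 1.65 and 4.16 CPM in the DOX hearts labelled KO, against 10.3, 10.5 and 6.67 CPM in the vehicle hearts labelled WT (log2 -1.74, adjusted p = 0.0443), and lost its call in edgeR whichever library was left out, at adjusted p of 0.0521 to 0.142. WT DOX hearts had 14.1, 41.4 and 17.2 CPM of it (log2 -3.14, adjusted p = 0.0268, for the DOX hearts labelled KO against them). Of 22 glucocorticoid-induced genes, 1 rose and 1 fell (9.09% called, beside 11.0% of all genes). Zbtb16, a zinc finger repressor, rose (72.5, 123 and 61.7 CPM against 39.4, 14.1 and 24.1 CPM, log2 1.73, adjusted p = 0.0279). Sgk1, a kinase that regulates sodium transport, fell (log2 -0.97, adjusted p = 0.0208).

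**Figure D5:**
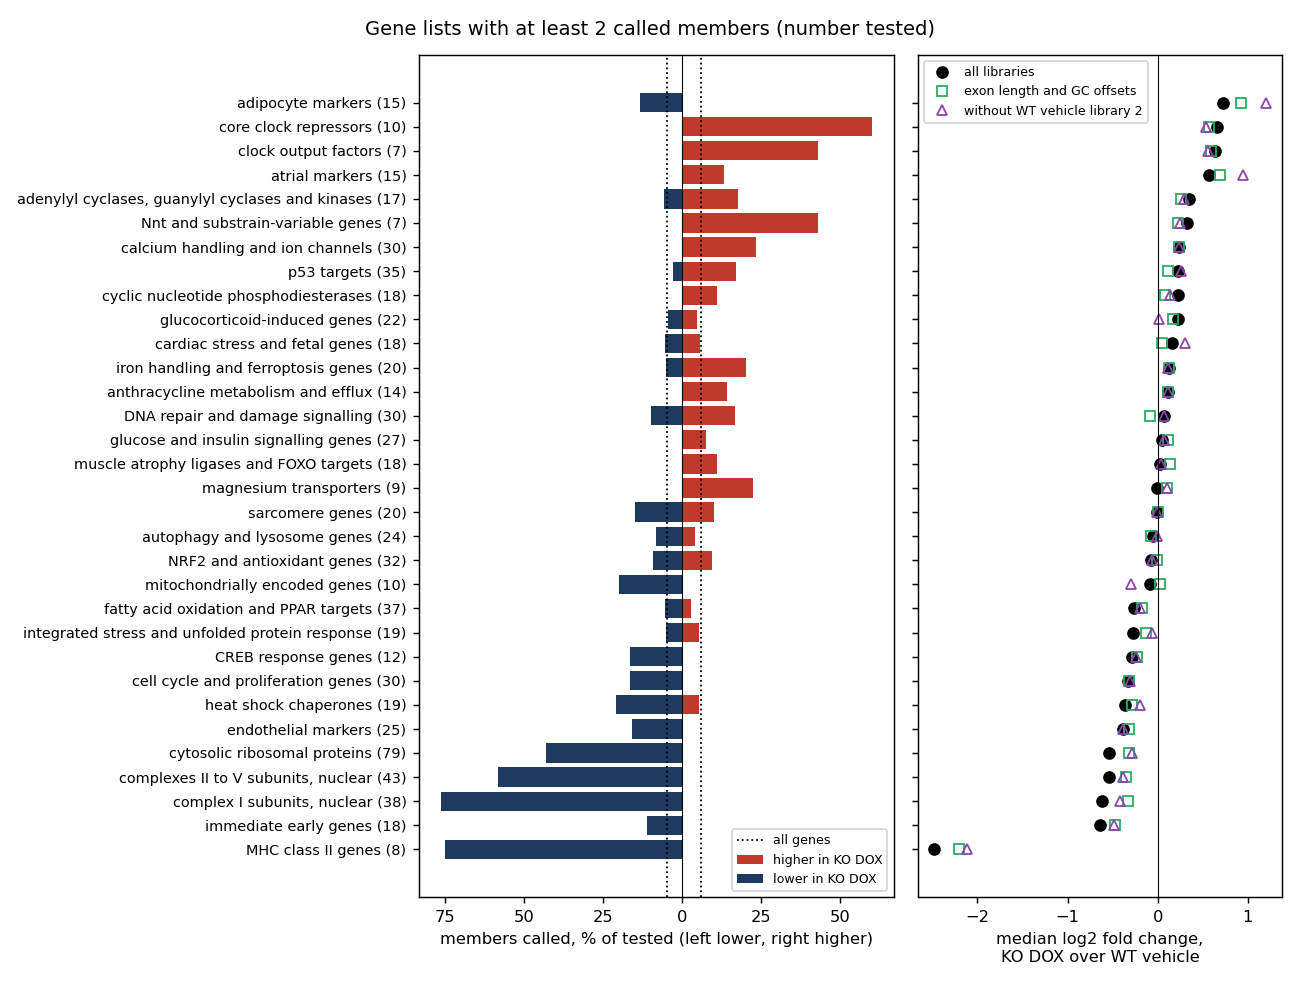
Left, share of tested members (x axis, % of the number in brackets) called lower (left of 0) or higher (right of 0) in the DOX hearts labelled KO for each gene list with at least 2 called members, with dotted lines at the shares over all genes, 4.95% and 6.03%; right, the median log2 fold change of each list with all libraries, with length and GC offsets, and without WT vehicle library 2. MHC class II genes and complex I subunits have the highest shares of lower genes and clock repressors of higher genes, and each of these 3 medians keeps its sign in the alternatives shown.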

How the data were processed

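RNA of mouse hearts was sequenced in 12 libraries as poly(A) RNA with a stranded kit, per the labels' protocols. Per the submitters' processing notes the tools were fastp 0.20.0, STAR 2.7.0f and featureCounts of Subread 1.6.4. Build, annotation, strand setting and treatment of multi-mapping reads: not given in the sources used here. The authors deposited raw counts per gene symbol for each library (55453 symbols).

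From these counts, edgeR 4.0.16 in R 4.3.3 fitted 1 mean per group over all 12 libraries, so that the groups share an estimate of the spread (biological coefficient of variation 17.5%). Genes were filtered by filterByExpr, scaled by TMM and tested with the quasi-likelihood F test, two-sided, with Benjamini-Hochberg adjustment over 14757 genes and a threshold of 0.05. SEs were derived from the fold change and F. Values per library are CPM scaled by TMM factors. Distances used log2 CPM with a prior count of 2. Coordinates are from GENCODE M21 (GRCm38), matched by symbol (98.4%). Total counts, between 23846398 and 32921876 per library, limit the precision, and intervals (95%, exact) and the floor of 3 counts per library cover counting error only. The groups share no replicate number, and no library was counted as a duplicate.

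Alternatives were DESeq2 1.42.0, limma 3.58.1 (voom), other scalings and filters, only the 6 libraries, the title suffix as a covariate and each library left out. Chosen after seeing the data were offsets for exon length and GC content, omission of KO DOX library 18 with WT vehicle library 2, and DESeq2 without each library. On simulated counts with 200 changed genes, 19.4% of those changed by 1.5-fold, 77.6% at 2-fold and 95.5% at 4-fold were recovered. These counts were drawn independently, without a deviating library or a trend with exon length. The shares therefore do not show the recovery in the real libraries, where both were present. The comparison and the gene lists were chosen with earlier results of these data known. Named genes were the targeted gene, the 12 highest and 12 lowest by fold change among calls whose libraries did not overlap and whose average log2 CPM reached 1, the 3 calls of lowest p in each list that had 2 or more, and a set of genes named whatever their p. The genes called in every leave-one-out fit, those near Pde10a and Cacna1c, Rpl37, Cxcr2 and other list members beyond that rule were named after their values were seen. Calls with clone names, Xist and Y-linked genes (83) were left out of the naming. Some members of the lists are not reported here.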

Additional observations from a re-analysis of the deposited data

How the results depend on the processing

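The 1621 calls (890 higher, 731 lower) kept their direction in 99.9% or more of cases under all 22 alternatives. These reused all or most of the libraries in which the calls were made, so the agreement was close to given in advance. The number of calls moved widely. It was 2768 (1395 higher, 1373 lower) with no filter, 2630 with DESeq2 (1334 lower), 5710 (2982 higher, 2728 lower) with voom, and 391 lower without TMM scaling. It was 39 (21 higher, 18 lower) in a fit of only the 6 libraries, 16 (12 higher, 4 lower) with the title suffix as a covariate, 895 (501 higher, 394 lower) with offsets for exon length and GC content, and 23 (17 higher, 6 lower) without KO DOX library 18 and WT vehicle library 2. Leaving out each library gave 18 to 3640 calls (12 to 1936 higher, 6 to 1704 lower) in edgeR and 906 to 3971 (511 to 2052 higher, 395 to 1919 lower) in DESeq2. Counts of genes at an unadjusted p below 0.05 moved less, between 2427 and 7076. Pde10a stayed higher throughout and missed the threshold with only the 6 libraries (2.07, adjusted p = 0.0693), with the title suffix (1.91, adjusted p = 0.0783) and without KO DOX library 20 (2.01) or WT vehicle library 3 (2.00). The other 4 leave-one-out fits kept it, over a range of 1.72 to 2.60 for all 6, and DESeq2 kept it in each (highest adjusted p 3.43e-05). The cause of these changes was not tested. Of the genes named, only some that had not passed changed sign. With 1 library left out, in edgeR and in DESeq2, Myh6 was at -0.04 to 0.09 and -0.04 to 0.08, Nr1d1 at -0.09 to 0.24 and -0.10 to 0.23, Hbb-bs at -2.17 to 0.03 and -2.17 to 0.02, Ppargc1a at -0.24 to 0.18 and -0.25 to 0.17, and Slc41a3 at -0.23 to 0.04 and -0.25 to 0.03. The DESeq2 values that changed sign included -0.02 for Myh6, -0.09 and -0.03 for Nr1d1, and 0.01 for Slc41a3. With offsets Myh6 was at -0.01 and Slc41a3 at 0.10, with the suffix Hba-a1 was at 0.75 and Hbb-bs at 0.73, and without KO DOX library 18 and WT vehicle library 2 Nr1d1 was at -0.04, Hba-a1 at 0.22, Hbb-bs at 0.21 and Slc41a3 at 0.04. No paired analysis was possible because the groups compared share no replicate number. Depth limits the low genes, such as Cxcr2 and Ifi208.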

Other observations

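Further gene groups showed single changes between the DOX hearts labelled KO and the vehicle hearts labelled WT. Over all genes 6.03% were called higher and 4.95% lower, and each of the next lists had 3 calls or fewer. Of 9 magnesium transporters, 2 rose, the plasma membrane gene Slc41a1 (log2 0.59, adjusted p = 0.0182) and the mitochondrial channel gene Mrs2 (log2 0.52, adjusted p = 0.0279), and Slc41a3 did not pass (log2 -0.05, adjusted p = 0.856). Of 18 muscle atrophy ligases and FOXO targets, 2 rose, Trim55, a ligase of the sarcomere (log2 0.62), and Nedd4 (log2 0.56), the second not passing with offsets for exon length and GC content (adjusted p = 0.0653). Of 12 apelin, relaxin and hypoxia genes, Hif1a, the oxygen-regulated transcription factor, rose (log2 0.86, adjusted p = 0.03). Of 24 autophagy and lysosome genes, Lamp2, a lysosomal membrane gene, rose (log2 0.45), and Map1lc3a (log2 -0.54) and Tfeb, a regulator of lysosome genes (log2 -0.41), fell, and all 3 calls were lost with the same offsets (adjusted p = 0.271, 0.406 and 0.0743). Of 19 cholesterol synthesis genes none passed in edgeR, with 3 at an unadjusted p below 0.05 and none called in DESeq2. Among 15 atrial markers, Kcnj3 and the transcription factor gene Tbx5 (log2 1.05, adjusted p = 0.0461) rose, neither passed with the offsets, and the summed level of the list was 3184, 1166 and 1089 CPM in the DOX hearts labelled KO and 766, 750.2 and 683 CPM in the vehicle hearts labelled WT.

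Hemoglobin transcripts differed between single libraries of the KO DOX group and were nearly absent from the WT DOX hearts. Hbb-bs, a beta globin gene, had 0.236, 101 and 27.8 CPM in the DOX hearts labelled KO and 25.0, 78.7 and 85.3 CPM in the vehicle hearts labelled WT, and Hba-a1, an alpha globin gene, was likewise lowest in KO DOX library 18, at 0.276 CPM. WT DOX hearts had 0.0719, 0 and 0 CPM of Hbb-bs and 0.144, 0.0364 and 0.0576 CPM of Hba-a1. Hbb-bs was called lower in them than in WT vehicle hearts (adjusted p = 0.0138 by edgeR). KO vehicle hearts had 22.5 to 124 CPM of it. Both genes belong to families of near-identical genes, between which reads can be split.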
